A study of Mus musculus with 8 samples.

Results

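Transcripts of 6 secreted proteins of the acute-phase and liver type, Saa2, Saa3, Orm1, Ahsg, Fgg and Mup5, were followed in the epididymal fat of 4 mouse lines. They are 6 of the 6137 genes named on the arrays and were found as every probe set that the platform annotation gives 1 of these symbols, 9 of 13069 probe sets, of which chip A holds 7 and chip B 2. They were chosen by the differences in signal between the lines on these same 8 arrays, so the values are a description and no test was made of them. RNA from the epididymal fat pads, which lie beside the epididymis, of 20 male mice per line, all 42 days old, was pooled and hybridised to 1 chip A and 1 chip B Affymetrix array. The lines were DU6, DU6i, DUKs and DBA, set against each other as DU6/DU6i and DUKs/DBA in the series title; no treatment or allele is labelled. From general knowledge, DU6 was bred for high body weight and is outbred, DU6i was made from DU6 by inbreeding, DUKs is the outbred line kept without selection, and DBA is a standard inbred strain. Each line is thus 1 pool with 1 value per probe set, and the differences between animals within a line were not measured.

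In the acute-phase response, inflammatory cytokines such as interleukin 6 and interleukin 1 act on liver cells through the transcription factors STAT3, NF-kB and C/EBP and change which proteins the liver secretes into the blood. Serum amyloid A, fibrinogen and the orosomucoids are proteins that increase in that response, while fetuin-A, the product of Ahsg, is one that decreases. Fat tissue makes some of these proteins itself: in the mouse, Saa3 is the serum amyloid A of adipocytes and macrophages, and haptoglobin, orosomucoid and lipocalin 2 are also transcribed in fat.

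Signals are the deposited intensities, scaled by the authors on each array to a common overall level, and are compared only between lines and within a probe set. A signal at or under the floor of its chip, the 95th percentile of the sizes of the negative signals (1023 on chip A and 2258 on chip B), gives only a bound, and a ratio against it is written as at least so many fold. Of the 9 probe sets, 7 were above the floor on at least 1 array and 3 on all 4, against 6075 and 3974 of all 13069. A difference was counted at 2-fold or more, which is a rule of size. As the technical error of a log2 ratio, the SD between probe sets of the same gene was 0.44 for DU6 over DUKs (387 genes), 0.35 for DU6i over DBA (383 genes) and between 0.37 and 0.48 for the other pairs. It does not hold the differences between animals or pools.

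The arrays differed in their range and in the signal along a control transcript. The 99th percentile of signals on chip A was 18809.5 in DU6 and 34793 in DU6i, against 27552 in DUKs and 23450.1 in DBA, and on chip B 49489 and 34692, against 52203 and 33621. The middle of the pyruvate carboxylase control transcript had 15.3% of its 3' signal on chip A in DU6 and 54.5% in DU6i, against 53.9% in DUKs and 19.5% in DBA. On chip B the shares were 12.7% and 45.3%, against 55.6% and 14.3%. DU6 over DBA and DU6i over DUKs thus compare lines with similar shares. The other pairs, DU6 over DUKs, DU6i over DBA, DU6 over DU6i and DUKs over DBA, each set a low share against a high one. What part this had in the ratios was not tested. Of 17 adipocyte markers, which check the labelled tissue, 14 were on the chips and 14 above the floor on at least 1 array, Adipoq (adiponectin), Fabp4 (the adipocyte fatty acid carrier) and Lipe (hormone-sensitive lipase) among them on all 4 arrays.

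Serum amyloid A was the group that was low in both DU6 lines against DUKs. Saa3, the form made by fat and macrophages, was measured by 2 probe sets on chip B. The x03479_s_at probe set gave a signal of 6685 in DU6 and 2123 in DU6i, against 16602 in DUKs and 2521 in DBA. The other probe set, of the _at kind, had 3307 in DU6 and 988.0 in DU6i, against 11052 in DUKs and 631 in DBA. By both probe sets DUKs was highest and DU6 next, and DU6i and DBA lay at or near the floor. Against DUKs, Saa3 in DU6 was lower by 2.48-fold with the first probe set and by 3.34-fold with the second, and in DU6i by at least 7.35-fold and at least 4.89-fold. In the order of the lines the step between DU6 and DUKs was larger than 2 technical SDs by both probe sets. DU6i and DBA could not be ranked, since by x03479_s_at the difference was 0.16 on the log2 scale with DU6i under the floor, and by the _at probe set both were under it. The log2 ratios of the 2 probe sets in DU6 over DUKs differed by 0.43, about 1 technical SD.

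Saa2, an acute-phase serum amyloid A carried by high-density lipoprotein, was measured on chip A. The u60438_f_at probe set gave a signal of 198 in DU6 and -75.1 in DU6i, against 2081 in DUKs and 2999 in DBA. It was thus above the floor in DUKs and DBA alone, with DU6 lower than DUKs by at least 2.03-fold and DU6i lower than DBA by at least 2.93-fold. After quantile normalisation the bound for DU6 against DUKs was 1.93-fold, which no longer reached 2-fold. DUKs and DBA themselves differed by a log2 ratio of -0.53, within 2 technical SDs. A further probe set annotated to both Saa2 and Saa1, L22190_s_at, had 3249 in DU6 and 4560.0 in DU6i, against 8329.7 in DUKs and 6903 in DBA. It put the lines in the same 2 groups, with DU6 2.56-fold lower than DUKs and DU6i 1.51-fold lower than DBA. The step between the groups, from DBA to DU6i, was within 2 technical SDs by this probe set, as was every other step between neighbouring lines. The other Saa2 probe set, L22190_i_at, was below 0 on all 4 arrays, between -1548 and -630.

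The Saa2 and Saa1 transcripts cannot be separated here. On these chips the ending _f_at marks a probe set that matches a gene family and _s_at 1 that may match several transcripts, and the table of mouse genes lists Saa1 among the older names of Saa2 and Saa2 among those of Saa1. Saa4 was under the floor in every line (between -29.2 and 202), as was Saa-ps (between 503 and 1791). Saa3 and Saa2 were both lower in DU6 and DU6i than in DUKs and parted in DBA, in which Saa3 was near or under the floor while u60438_f_at was at its highest; by the probe set shared with Saa1, DUKs was highest and DBA next, 0.27 apart on the log2 scale.

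The genes of the family lie together on chromosome 7, and their promoters are shown because the Saa3 and Saa2 levels parted in DBA. The 250 bases before the RefSeq start (GRCm38.p6) are given 5' to 3', with capitals at matches to either of 2 motifs. They come from the reference genome and not from these lines, so they say nothing of differences between the lines.
Saa3 (chr7:46715677-46715926, minus strand): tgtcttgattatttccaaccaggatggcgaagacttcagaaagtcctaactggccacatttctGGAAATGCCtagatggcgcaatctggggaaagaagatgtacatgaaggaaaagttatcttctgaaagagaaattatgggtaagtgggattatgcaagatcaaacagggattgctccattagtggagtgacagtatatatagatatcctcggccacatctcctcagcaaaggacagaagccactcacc
Saa2 (chr7:46751583-46751832, plus strand): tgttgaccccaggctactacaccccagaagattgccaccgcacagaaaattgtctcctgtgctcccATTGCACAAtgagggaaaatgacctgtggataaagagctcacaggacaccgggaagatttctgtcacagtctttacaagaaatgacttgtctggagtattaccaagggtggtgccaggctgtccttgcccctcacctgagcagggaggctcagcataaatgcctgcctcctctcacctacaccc
Saa1 (chr7:46742981-46743230, minus strand): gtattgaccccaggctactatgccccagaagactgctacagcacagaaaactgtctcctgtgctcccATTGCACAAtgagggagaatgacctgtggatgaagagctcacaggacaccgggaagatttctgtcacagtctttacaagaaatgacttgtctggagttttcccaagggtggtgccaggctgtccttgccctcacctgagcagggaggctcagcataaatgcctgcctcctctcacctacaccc
The promoters of Saa2 and Saa1 were identical at 94.8% of 251 aligned positions, and those of Saa2 and Saa3 at 47.8% of 270. In Saa3 the capitals are a match to GGNNNTTCC, an NF-kB type motif, on the other strand. In Saa2 and Saa1 they are a match to TTNNGNAAT, a C/EBP type motif, also on the other strand. On either strand the NF-kB type letters occur in 15.7% and the C/EBP type letters in 10.2% of 32851 promoter windows of that length, and no match of the STAT type motif TTCNNNGAA (in 7.02%) was found in these 3. None of these motifs overlap here. A match is a description of the letters and not a binding site.

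Orm1, which encodes orosomucoid 1, an acute-phase glycoprotein of liver and fat that binds drugs and modulates inflammation, was highest in DU6i. The M27008_at probe set gave a signal of 6848 in DU6 and 11833 in DU6i, against 5043 in DUKs and 4443 in DBA. All 4 lines were above the floor, and both DU6 lines were above both others. Orm1 was 2.66-fold higher in DU6i than in DBA and 2.35-fold higher in DU6i than in DUKs, but 1.36-fold higher in DU6 than in DUKs, which is within 2 technical SDs. No neighbouring lines in the order differed by more than 2 technical SDs, the widest step being 0.79 on the log2 scale between DU6i and DU6. A second Orm1 probe set, D18091_rc_at, was under the floor in every line (between 222 and 692). Orm2, its neighbour on chromosome 4, was under the floor by both of its probe sets, so M27008_at alone stands for the orosomucoid genes here.

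For Ahsg and Fgg, both inbred lines, DU6i and DBA, were above both outbred lines. Ahsg encodes fetuin-A, a liver glycoprotein that binds calcium phosphate and inhibits the insulin receptor. Its probe set gave a signal of 1880.0 in DU6 and 16797 in DU6i, against 5042 in DUKs and 13196 in DBA. Every line was above the floor, with DU6 lowest and DU6i and DBA above the outbred lines. Ahsg in DU6 was below DUKs by 2.68-fold and below the derived line DU6i by 8.93-fold. DU6i and DBA differed by 1.27-fold, within 2 technical SDs, while the steps between DBA and DUKs (2.62-fold) and between DUKs and DU6 (2.68-fold) were beyond them.

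Fgg, the gamma chain of the clotting protein fibrinogen, gave a signal of 883 in DU6 and 3591 in DU6i, against 1427 in DUKs and 10102.0 in DBA. DBA was highest and DU6 was under the floor. Fgg was 2.81-fold lower in DU6i than in DBA, 2.52-fold higher in DU6i than in DUKs, and lower in DU6 than in DBA by 9.88-fold or more. Fgg in DU6 was below DUKs by at least 1.39-fold, a bound that lies within 2 technical SDs. Fgg and Ahsg parted at the top, where DBA exceeded DU6i for Fgg but not for Ahsg.

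The promoter of Ahsg is shown because its transcript had the widest range among members above the floor in every line (8.93-fold), with capitals at a match to TTNNGNAAT, the C/EBP type motif, at positions -32 to -24 from the start.
Ahsg (chr16:22891765-22892014, plus strand): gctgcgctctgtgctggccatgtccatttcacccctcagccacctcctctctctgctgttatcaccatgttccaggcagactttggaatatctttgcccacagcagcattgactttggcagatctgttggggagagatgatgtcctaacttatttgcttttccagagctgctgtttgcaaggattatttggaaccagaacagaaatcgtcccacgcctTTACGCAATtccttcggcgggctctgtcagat
The corresponding window of Fgg held no match to any of the 3 motifs. Of the 6 genes, 4 had a promoter in the RefSeq table, all from the reference genome and not from these lines.

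Mup5, a lipocalin of the major urinary protein family, whose members are made mainly in liver and carry small odorants into the urine, gave a signal of 1360.0 in DU6 and 7458 in DU6i, against 3905 in DUKs and 3105.0 in DBA. DU6i was highest and DU6 lowest, and all lines were above the floor. Mup5 in DU6 was below DUKs by 2.87-fold, and it was 2.40-fold higher in DU6i than in DBA. It was 5.48-fold lower in DU6 than in DU6i. DUKs and DBA differed by 1.26-fold, within 2 technical SDs. Mup3, the only other gene of the family named on the chips, had 3663 in DU6 and 10703.0 in DU6i, against 6032 in DUKs and 7767 in DBA. It shared the highest and lowest line with Mup5 but was below DUKs in DU6 by 1.65-fold and 1.38-fold higher in DU6i than in DBA, both under 2-fold. The urinary protein genes are close copies of each other, and the Mup5 probe set is of the _f_at kind, so the signal may come from several of them.

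The order of the lines for Mup5 (DU6i, DUKs, DBA, DU6) was that of the 99th percentile of chip A, and DUKs and DU6, the highest for Saa3, had the higher 99th percentiles of chip B. After quantile normalisation, which gives the arrays of a chip the same range, Mup5 in DU6 was below DUKs by 3.06-fold and was 2.48-fold higher in DU6i than in DBA. By the same normalisation Saa3 in DU6 was below DUKs by 2.61-fold and 3.26-fold, and Saa2 (u60438_f_at) by at least 1.93-fold, under 2-fold. The chip A sum of the adipocyte markers (10 genes) also followed the Mup5 order, with 130804 in DU6 and 337633 in DU6i, against 223305 in DUKs and 172210.4 in DBA. The chip B sum (4 genes) did not, with 198895 in DU6 and 105063 in DU6i, against 227113 in DUKs and 107097 in DBA, so that DU6i was lowest there. What part the adipocyte content had in the Mup5 differences was not tested, and in pooled tissue fewer cells of a type and less RNA per cell cannot be told apart.

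**Figure D1:**
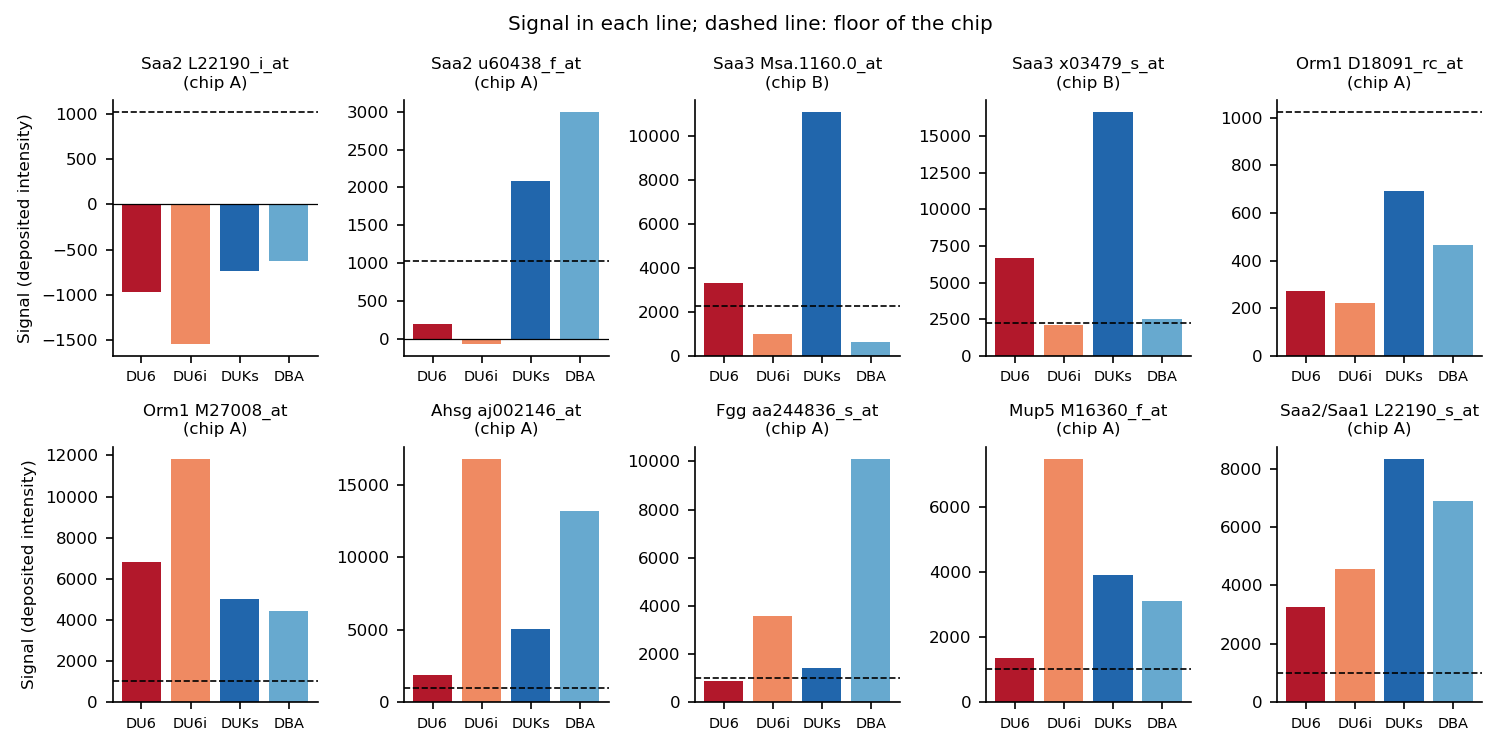
Deposited signal (vertical axes, linear, each with its own scale) of the 9 member probe sets and of the probe set shared by Saa2 and Saa1 in the pools of DU6, DU6i, DUKs and DBA, 1 array per bar, with the floor of the chip as a dashed line and no error bars because each line is 1 pool. Saa3 is highest in DUKs by both probe sets, Ahsg and Fgg are high in DU6i and DBA, and Orm1 and Mup5 are highest in DU6i.

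Counted by size, 5 of the 7 measured member probe sets were lower in DU6 than in DUKs and 0 were higher, where 6.3% of all 5604 measured probe sets were lower and 3.91% higher, or 10.2% in either direction. The 5 were those of Saa2, Saa3 (both), Ahsg and Mup5, and after quantile normalisation the count was 4, without Saa2. In DU6i over DBA, 2 of 6 were higher (Orm1 and Mup5) and 2 lower (Saa2 and Fgg), where 4.79% of 5556 were higher and 6.68% lower, or 11.5% in either direction. In DU6 over DBA, 1 of 7 was higher (Saa3 by x03479_s_at, 2.65-fold) and 4 lower (Saa2, Ahsg, Fgg and Mup5), against 3.79% and 4.17% of 5491, or 7.96% in either direction. In DU6i over DUKs, 3 of 7 were higher (Orm1, Ahsg and Fgg) and 3 lower (Saa2, which was under 2-fold after quantile normalisation, and both Saa3 probe sets), against 3.39% and 6.76% of 5579, or 10.1% in either direction. In DU6 over DU6i, 1 of 6 was higher (Saa3 by x03479_s_at, at least 2.96-fold) and 3 lower (Ahsg, Fgg and Mup5), against 4.8% and 5.7% of 5478, or 10.5% in either direction. In DUKs over DBA, 2 of 7 were higher (Saa3 by both probe sets) and 2 lower (Ahsg and Fgg), against 6.01% and 5.29% of 5691, or 11.3% in either direction. The Ahsg and Fgg probe sets, 2 of 7, had both inbred lines above both outbred lines, as did 10.6% of all 6075, and the Saa3 probe sets, also 2, had both below, as did 13.9%. Because these same ratios chose the genes, nothing is read from the counts, and pairs that share a line share its array.

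**Figure D2:**
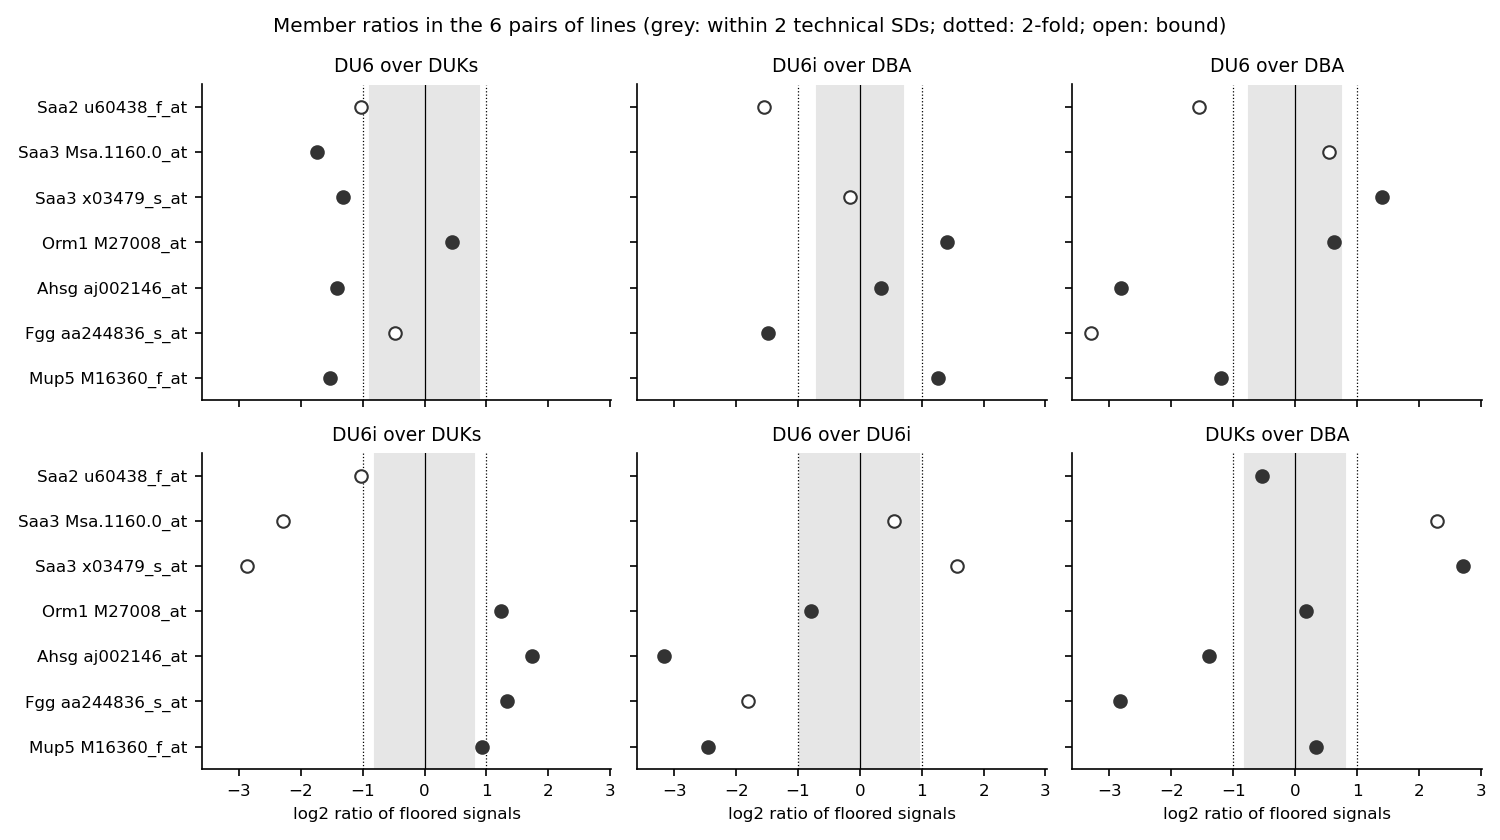
Log2 ratio of floored signals (horizontal axes) for the 7 member probe sets above the floor on an array, in the 6 pairs of lines; open points are bounds because 1 signal is at or under the floor, the grey band spans 2 technical SDs to either side of 0 and dotted lines mark 2-fold. In DU6 over DUKs 5 points lie left of the 2-fold line and none right of the other, while in DU6i over DBA 2 lie on each side.

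Several other proteins that the liver secretes shared the order of Fgg. By the smallest root mean square difference between centred log2 signals over the 4 lines, among 816 candidate probe sets of chip A, the nearest to Fgg were Hpx, Pzp and Vtn (0.24, 0.28 and 0.37 on the log2 scale), and the nearest to Ahsg were Ambp, Vtn and Cavin1 (0.52, 0.53 and 0.54). Hpx, which encodes the haem carrier hemopexin, gave a signal of 884 in DU6 and 2717 in DU6i, against 1707 in DUKs and 9299 in DBA. Pzp, an alpha-macroglobulin protease inhibitor, had 201 in DU6 and 3285 in DU6i, against 1339 in DUKs and 6147 in DBA. Vtn, the adhesive plasma protein vitronectin, had 965 in DU6 and 3461.0 in DU6i, against 1727 in DUKs and 6108 in DBA. In each of the 3 genes DBA was highest, DU6i next and DU6 under the floor, as for Fgg. Ambp, the precursor of alpha-1-microglobulin, had 854 in DU6 and 3378 in DU6i, against 1455 in DUKs and 4710.2 in DBA on chip A, and a probe set on chip B gave the same order. Cavin1 is an adipocyte caveola gene and not a liver gene.

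Of a list of 45 liver-secreted proteins, 28 were on the chips and 21 were above the floor on at least 1 array. In 9 of these 21, namely Ambp, Apoh, Apom, F2, Hrg, Itih1, Plg, Rbp4 and Vtn, both inbred lines lay above both outbred lines. The same held for 10.6% of all 6075 probe sets above the floor on an array. Of the 9, Ambp (by the chip B probe set used here), Apoh, Apom, F2 and Plg were above the floor in DU6i and DBA alone. They thus entered the count through the lines where they were high. By its chip A probe set Ambp was above the floor in DUKs too, and second probe sets of Apoh and Hrg were under it in every line. With the floor doubled the count was 4 of 12, against 10.2% of all 4261. Another 6 genes of the 21 (Serpind1, Serpinf2, Serpina6, Itih2, C9 and Pon1) were above the floor in DBA alone. The counts are therefore a description of the genes that passed the floor. In the ratios, a gene above the floor in DBA alone could only be lower in each other line than in DBA. A gene above it in DU6i and DBA alone could only be lower in DU6 and DUKs than in either. These directions were fixed by the floor and also enter the medians. In DU6 over DBA 7 of 21 were lower and 1 higher, against 4.17% and 3.79% of all measured probe sets. The median log2 ratio was -0.68, against 0.0019 over all probe sets. In DUKs over DBA 7 of 21 were also lower and 1 higher, against 5.29% and 6.01% (median -0.64, against -0.0054 over all). In DU6i over DUKs 4 of 15 were higher and 1 lower, against 3.39% and 6.76% (median 0.47, against -0.0007 over all). In DU6 over DU6i 0 of 15 were higher and 4 lower, against 4.8% and 5.7% (median -0.70, against 0.07 over all). In DU6 over DUKs 0 of 10 passed 2-fold in either direction, against 10.2% (median -0.15, against 0.05 over all). In DU6i over DBA 0 of 21 were higher and 1 lower, against 4.79% and 6.68% (median -0.25, against -0.03 over all).

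Among single genes of the list, Plg, the precursor of the fibrin-cleaving enzyme plasmin, gave a signal of 357 in DU6 and 1761 in DU6i, against 737 in DUKs and 2732 in DBA. Itih1, a heavy chain of the inter-alpha-trypsin inhibitor, had 1824 in DU6 and 7838 in DU6i, against 3478.6 in DUKs and 7524 in DBA, and was 2.25-fold higher in DU6i than in DUKs. Rbp4, the plasma carrier of retinol, which adipocytes also make, had 14476 in DU6 and 29418 in DU6i, against 13567 in DUKs and 19230.2 in DBA. Apoa2, an apolipoprotein of high-density lipoprotein held in a separate list, had 7023 in DU6 and 23812 in DU6i, against 9021 in DUKs and 28287 in DBA, and was 4.03-fold lower in DU6 than in DBA. Alb, which encodes albumin, did not have both inbred lines above both outbred lines. It had 21333 in DU6 and 38627 in DU6i, against 41207 in DUKs and 34102 in DBA.

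Markers of liver cells differed among themselves in their order over the lines. Of 24 hepatocyte markers, 16 were on the chips and 8 above the floor on at least 1 array; 3 of the 8 also stand in the lists of liver-secreted or acute-phase genes. Of the defining markers, Hnf4a, Ttr, Apoa1, Asgr1, Asgr2, Cyp7a1, Tdo2 and Otc were at or under the floor in every line. Both inbred lines lay above both outbred lines in 4 of the 8 (Ambp, Cyp2f2, Cyp3a11 and Serpina1a) and not in Alb, Arg1, Cyp2e1 or Hpd. Of all 6075 probe sets above the floor on an array, 10.6% had both inbred lines above. Of the 4, Ambp (by its chip B probe set) and Cyp3a11 were above the floor in DU6i and DBA alone. These genes thus entered the count through the lines where they were high. Cyp2f2 was under the floor in DU6 and just above it in DUKs. Cyp3a11, a liver cytochrome P450, had 39.1 in DU6 and 8557 in DU6i, against 603 in DUKs and 7365 in DBA. Cyp2f2, a cytochrome P450 of liver and lung, had 359 in DU6 and 3237 in DU6i, against 1032.0 in DUKs and 3198 in DBA. Arg1, the arginase of the urea cycle, lay near the floor with 1112 in DU6 and 1155 in DU6i, against 728 in DUKs and 707 in DBA, and Hpd, an enzyme of tyrosine breakdown, was above it in DBA alone, at 2312. The summed signal of the list on chip B was 49901 in DU6 and 96175 in DU6i, against 63145 in DUKs and 89483 in DBA, most of it from Alb and Serpina1a. On chip A it was 22829.5 in DU6 and 58679 in DU6i, against 38341 in DUKs and 36178 in DBA, most of it from Cyp2e1, which fat also transcribes. The part of liver cells in the Ahsg and Fgg values was not tested.

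**Figure D3:**
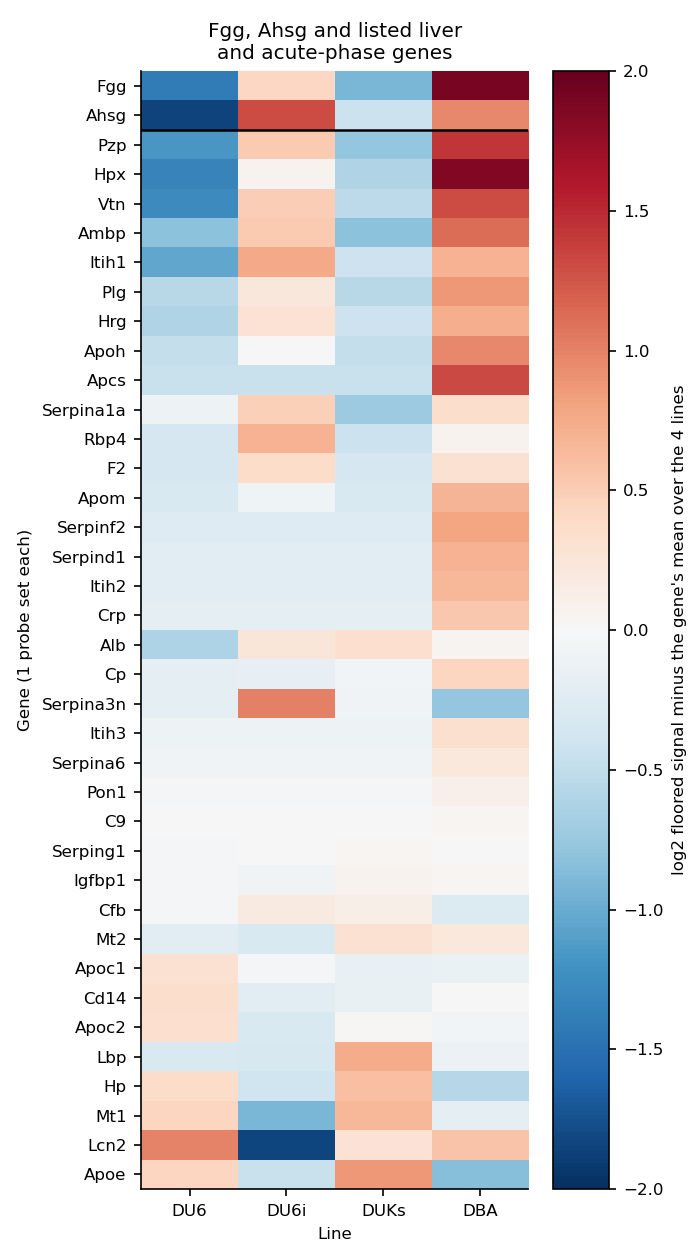
Log2 floored signal of each gene minus its mean over the 4 lines (colour, from -2 to 2), for Fgg and Ahsg above the black line and for the listed liver-secreted and other acute-phase genes with signal above the floor below it, sorted by their summed value in DU6i and DBA; columns are DU6, DU6i, DUKs and DBA, 1 array each. Because each row is centred on its mean, the sorting itself puts genes with a low sum over DU6 and DUKs at the top. It puts those with a high sum, Lcn2 and Apoe among them, at the bottom. Nothing is read from the order of the rows.

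The other acute-phase genes did not move as 1 group. Of 35 listed, 21 were on the chips and 15 above the floor on at least 1 array. In DU6 over DUKs 0 of 12 were higher and 1 lower, against 3.91% and 6.3% of all measured probe sets (median -0.19, against 0.05 over all). In DU6i over DBA 1 of 15 was higher and 3 lower, against 4.79% and 6.68% (median -0.51, against -0.03 over all). Lbp, the lipopolysaccharide-binding protein, was highest in DUKs like Saa3, with 10034 in DU6 and 9833 in DU6i, against 20694 in DUKs and 11309 in DBA. A chip A probe set of Lbp also had DUKs highest, at 15200.1, with the other lines between 6742 and 9323. Serpina3n, an acute-phase protease inhibitor also made in fat, was highest in DU6i like Orm1, with 16588 in DU6 and 37878 in DU6i, against 17861 in DUKs and 11023 in DBA. Its DU6i signal lay above the 99th percentile of that array (34793). After quantile normalisation its signals were 21398 in DU6 and 28102 in DU6i, against 17797 in DUKs and 11195 in DBA. Hp, which encodes haptoglobin, had 69031 in DU6 and 40371 in DU6i, against 81298 in DUKs and 35757 in DBA. These haptoglobin signals are near the top of the range of chip B, and after quantile normalisation they were 61002 and 52125, against 58391 and 47898. Apcs, the serum amyloid P component, exceeded the floor only in DBA, at 7676, as did Crp, the C-reactive protein, at 3698, and Itih3, another inter-alpha-trypsin inhibitor chain, at 3036.0. Their ratios to DBA could thus only be lower in the other lines.

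Lcn2, which encodes the iron-siderophore binding lipocalin 2, was lowest in DU6i by both probe sets. The x81627_s_at probe set had 48487 in DU6 and 6788 in DU6i, against 29578 in DUKs and 36012 in DBA. The other probe set had 27050 in DU6 and 2432 in DU6i, against 18556.5 in DUKs and 37639.5 in DBA, so that DBA was highest. After quantile normalisation DBA was also highest by x81627_s_at, at 48689 against 41660 in DU6. Lcn2 is also transcribed in the epididymis, and the epididymal marker Gpx5 was likewise lowest in DU6i, where it was below 0, against 49126 in DU6, 52044 in DUKs and 20753 in DBA. Of the 16 markers of the epididymis and male tract, 7 were on the chips and above the floor on an array, with sums on chip B of 49765 in DU6 and 898 in DU6i, against 57992 in DUKs and 127648 in DBA. Most of the DBA sum came from the seminal vesicle genes Svs2 (19923), Svs4 (42807) and Svs5 (43837), which were under the floor in the other lines, whereas Gpx5 was lower in DBA than in DU6 or DUKs. On chip A the sums were 20389.8 in DU6 and 6196 in DU6i, against 24859.5 in DUKs and 23783 in DBA. Their part in the Lcn2 values was not tested.

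The inducers of the acute-phase response gave little signal. Il6, Il1a, Il1b and Tnf were at or under the floor in all 4 lines, as were the receptor chains Il6ra and Il1rap. Of the other receptor chains listed, Il6st, Il1r1 and Tnfrsf1a were above the floor in all 4 lines, Lifr in 3 and Tnfrsf1b in DUKs alone. Of 29 listed cytokine and regulator genes, 23 were on the chips and 15 above the floor on an array, and between 0 and 1 of them passed 2-fold in any pair. Cebpb, a C/EBP factor that drives acute-phase genes, had 7288 in DU6 and 6266 in DU6i, against 2017 in DUKs and 4314 in DBA. It was under the floor in DUKs, and its part in the member values was not tested. Stat3, the transducer of interleukin 6 signals, lay between 10053 and 13468. Scarb1, a receptor for high-density lipoprotein that also takes up serum amyloid A, was under the floor in DU6 (631) and had 3901 in DU6i, against 3226 in DUKs and 3212 in DBA.

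Macrophages are a source of Saa3 beside adipocytes. Of 19 macrophage markers, 17 were on the chips and 16 above the floor on an array. Their summed signal on chip B was 145034 in DU6 and 117683 in DU6i, against 96008 in DUKs and 76038 in DBA. On chip A it was 53772 in DU6 and 66739 in DU6i, against 57187 in DUKs and 39992.5 in DBA. By the sums DUKs was thus below DU6 on chip B and above it on chip A. The brightest chip A marker, Lyz2, had 19244 in DU6 and 41964 in DU6i, against 34013 in DUKs and 26092 in DBA. Gene by gene, 15 of the 16 were higher in DU6 than in DUKs and only Lyz2 was lower (median log2 ratio 0.55, against 0.05 over all probe sets). Of 12 neutrophil markers, 10 were on the chips and 5 above the floor on an array, 4 of the 5 highest in DUKs. Of these 4, S100a9, Camp and Ltf were above the floor in DUKs alone. They thus entered the count through the line where they were high, and nothing is read from it. Elane, Mpo, Mmp9, Cxcr2 and Csf3r were at or under the floor in every line. The sum of the neutrophil markers on chip A was 3247 in DU6 and 1620.3 in DU6i, against 7458 in DUKs and 2165 in DBA. On chip B it was 8078 in DU6 and 10232 in DU6i, against 9389.5 in DUKs and 4820.2 in DBA. The part of these cells in the Saa3 values was not tested. Of the mesothelial markers, which mark the surface of the fat pad, 9 of 13 were on the chips and 8 above the floor on an array, with sums on chip B of 22978 in DU6 and 13561 in DU6i, against 17023 in DUKs and 35815 in DBA, and on chip A of 18353 in DU6 and 12998 in DU6i, against 15549 in DUKs and 26308 in DBA.

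The patterns nearest to the other members were of mixed kinds. Among 285 candidate probe sets of chip B, those nearest to Saa3 by its _at probe set were Ddx4, Cyb561 and Nek2 (0.29, 0.30 and 0.35 on the log2 scale). The second Saa3 probe set was nearest to the first (0.40), then to Hba-a1 (0.48), a haemoglobin chain, and Cyb561 (0.50). Ddx4 is a germ cell gene, and had 511 in DU6 and 865 in DU6i, against 7198 in DUKs and 1256 in DBA. On chip A the nearest to Saa2 were Igtp, an interferon-induced GTPase, Slc27a2, a fatty acid transporter, and Mgst3 (0.12, 0.13 and 0.18). The nearest to Orm1 were Lpgat1, Ackr3 and Fstl1 (0.04, 0.09 and 0.11), and the nearest to Mup5 were Zfp385a, Lpl and 1810058I24Rik (0.12, 0.20 and 0.23). Lpl, the lipoprotein lipase of adipocytes, had 7001 in DU6 and 27218 in DU6i, against 19095 in DUKs and 15474 in DBA, the order of Mup5. Each likeness rests on 4 values from arrays that the probe sets share.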

How the data were processed

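Epididymal fat RNA of 4 mouse lines, 1 pool of 20 males each, was measured on 8 arrays. Per the labels, the authors obtained an intensity per probe set from Affymetrix software (Data Mining Tool 1.2, Microarray Suite 4.0.1), with every array scaled to a common level. The values are on a linear scale and go below 0. Detection calls were not used here. The number of arrays limits the precision, and no test was made. Probe sets were named from the platform annotation (chip A 5560 with 1 symbol, 197 with several, 827 unnamed; chip B 2001, 27 and 4567), with symbols checked against a RefSeq table. On each chip 55 control probe sets were left out. Before log2, lower signals were raised to the floor; a probe set entered a pair when at least 1 array was above the floor. List genes used the probe set with the highest mean signal. Named genes were all members, listed genes at 2-fold or more in any pair (24 genes), and the 3 nearest patterns per member. Listed and marker genes named with values beyond this were chosen after their values were seen. They are Alb, Crp, Itih3, Stat3, Cyp3a11, Cyp2f2, Cyp2e1, Arg1, Hpd, Gpx5, Svs2, Svs4, Svs5 and Lyz2. The adipocyte markers and receptor chains named were also chosen in that way. The members and lists were chosen with earlier results of these data known. Alternatives were 75th percentile scaling, quantile normalisation, the floor halved or doubled, log2(signal + floor), the median of all probe sets of a gene and each chip alone. The calls were tried on simulated data that started from probe sets well above the floor, with large changes and less noise than the technical SDs found here. That simulation does not check calls that rest on signals near the floor or on ratios near 2-fold. Python 3.11.15, numpy 2.4.6 and pandas 2.3.3 were used.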

Additional observations from a re-analysis of the deposited data

Results flagged for a closer look

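Mup5 went in opposite directions at 2-fold or more in the pairs DU6 over DUKs (log2 ratio -1.52) and DU6i over DBA (1.26). The difference between the log2 ratios, DU6i over DBA minus DU6 over DUKs, was 2.79. These pairs share no array, and the difference was not tested because each line is 1 pool. On chip A the middle of the control transcript had 15.3% of its 3' signal in DU6 and 54.5% in DU6i, against 53.9% in DUKs and 19.5% in DBA. This share thus also went in opposite directions in the pairs, and its part in the Mup5 values was not tested.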

How the results depend on the processing

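Of the alternatives for the log2 ratios in DU6 over DUKs and DU6i over DBA, 54 moved the value by less than 1 technical SD and 9 by more, and none turned the direction of a ratio called at 2-fold. With the floor halved, Saa2 (u60438_f_at) had a log2 ratio of -2.02 in DU6 over DUKs and -2.55 in DU6i over DBA. With the floor doubled these were -0.024 and -0.55, Saa3 (the _at probe set) in DU6 over DUKs was -1.29 and Mup5 -0.93. With log2(signal + floor), Saa2 in DU6i over DBA was -1.98, and in DU6 over DUKs Saa3 (the _at probe set) was -1.26 and Mup5 -1.05. A bound moves with the floor by construction. The member probe sets at 2-fold or more, 5, 5 and 4 in DU6 over DUKs, DU6 over DBA and DU6 over DU6i, were 3, 2 and 2 with the floor doubled, and 3 in DU6 over DBA with log2(signal + floor); the other 26 counts stayed within 1.5 times. After quantile normalisation Saa2 in DU6 over DUKs was -0.95, under 2-fold. For the other 4 pairs, 99 member values moved by less than 1 technical SD and 34 by more; of list medians, 171 and 15. The inbred lines both lay above the outbred ones in 9 of 21 liver-secreted genes, against 10.6% of all probe sets. The count was 11 of 20 after quantile normalisation (11.9% of all) and 4 of 12 with the floor doubled (10.2%). It was 13 of 24 with the floor halved (11.2%), 13 of 21 with log2(signal + floor) (12.4%) and 9 of 20 with 75th percentile scaling (10.9%). Signals near the floor have no order, which limits Saa2, Fgg and Saa3 in their lower lines. No paired analysis was possible because each line has 1 pool and the labels give no replicate numbers.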

Other observations

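Apoe, an apolipoprotein made by adipocytes and macrophages as well as liver, gave different orders on the chips. On chip A its probe set gave a signal of 11321 in DU6 and 34167 in DU6i, against 23449.6 in DUKs and 17847 in DBA. On chip B its probe set had 47684 in DU6 and 25970.4 in DU6i, against 64660 in DUKs and 19563 in DBA. DU6i was thus highest on chip A and DUKs on chip B, the lines with the highest 99th percentile on the chip (34793 and 52203).

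Serpina1a, an alpha-1-antitrypsin gene, was measured on chip B by probe sets of the _f_at and the _i_at kind. The first had 26753 in DU6 and 39861 in DU6i, against 17500.4 in DUKs and 36881 in DBA, and the second 1879.7 in DU6 and 8704 in DU6i, against 2368 in DUKs and 17064 in DBA. By both, DU6i and DBA lay above DU6 and DUKs.

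Metallothionein 1 (Mt1), a zinc-binding protein of the acute-phase response, was lowest in DU6i by both probe sets, with 34197 in DU6 and 13521 in DU6i, against 40081 in DUKs and 22476 in DBA by the brighter.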
